A study of Mus musculus with 21 samples.

Results

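Of the 1813 H2Bub1 domains listed for Fbxl19 knockdown embryonic stem (ES) cells, 326 shared no base with any of the 2937 domains listed for ES cells without the knockdown. These new domains made up 18.0% of the knockdown list (exact Clopper-Pearson 95% interval 16.2 to 19.8) and 3.68 Mb of the 41.9 Mb it covers. Across the 5 H2Bub1 lists of the series there were 18181 domains. Members were chosen by the positions of domains in the knockdown and ES lists alone, so the number, length and score of the new domains and their distance from ES domains are given as a description. What they overlapped in the OE-high, differentiated and differentiated knockdown lists, and the Fbxl19 and Rnf20 peaks in them, played no part in the choice.

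H2Bub1 is histone H2B carrying a single ubiquitin, placed by the E3 ligase Rnf20 with its partner Rnf40. The mark spreads over the bodies of transcribed genes, where it travels with elongating RNA polymerase II and favours methylation of histone H3. Fbxl19 has a CXXC zinc finger, which binds unmethylated CpG. The series title has it bring Rnf20 to CpG islands and promote the mark, and the comparison of both lists asks where H2Bub1 domains were listed after Fbxl19 knockdown that were not listed before it.

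The study used chromatin immunoprecipitation and sequencing in J1, a mouse ES cell line kept in medium with serum and leukemia inhibitory factor. An H2Bub1 antibody was applied to 3 samples of ES cells, 2 of the Fbxl19 knockdown, 3 of a clone with more than 5-fold overexpression of flag-biotin tagged Fbxl19 (OE-high), 2 of cells at day 4 of differentiation and 2 of the knockdown at day 4 of differentiation. Streptavidin beads were used for tagged Fbxl19 in 2 samples of OE-high and 2 of a clone with a sub-endogenous level (OE-low), and for Rnf20 in 1 sample, the OE-low and Rnf20 samples in J1 cells containing BirA, a biotin ligase. The knockdown method, its extent and the way of differentiating the cells are not analysed here, and lists of regions hold no marker genes by which the labelled cell states could be checked.

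Each H2Bub1 list combines the replicates of its group. The spread between replicates is therefore unknown, and no test was made. The intervals given here cover counting error in the number of domains only, and domains are not replicates of a condition. They also take domains as independent, which neighbouring domains may not be. Of the new domains, 17.5% had another new domain within 10 kb, and several could lie under the same OE-high domain. The intervals may therefore be too narrow, and the part of this grouping was not tested. The lists hold domains with an authors' score above 7, in score units of unstated formula, on a grid of 200 bp. The track name of the ES list has 60M in it and that of the knockdown 46M, figures whose meaning the headers do not give. Depth per sample is unknown, and the H2Bub1 signal of ES cells at the new domains, under the listing threshold, was not analysed here.

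New domains were short and scored low. Their lengths ran from 400 to 161600 bp around a median of 5000 bp (interval 4200 to 5600), against a median of 11000 bp (interval 10200 to 12000) in the 1487 knockdown domains that overlapped an ES domain. The median score was 7.80, against 9.06, and 195 new domains (59.8%) scored under 8, against 26.5% of the others. By length, 44.3% of the knockdown domains under 1 kb were new (interval 32.4 to 56.7), as were 27.2% of those of 1 to 5 kb, 16.7% of those of 5 to 20 kb and 8.58% of those of 20 kb or more (interval 6.37 to 11.2). By score, 35.1% of the lowest 25% of the knockdown list (under 7.75) and 8.15% of the highest 25% (above 10.8) were new.

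**Figure D1:**
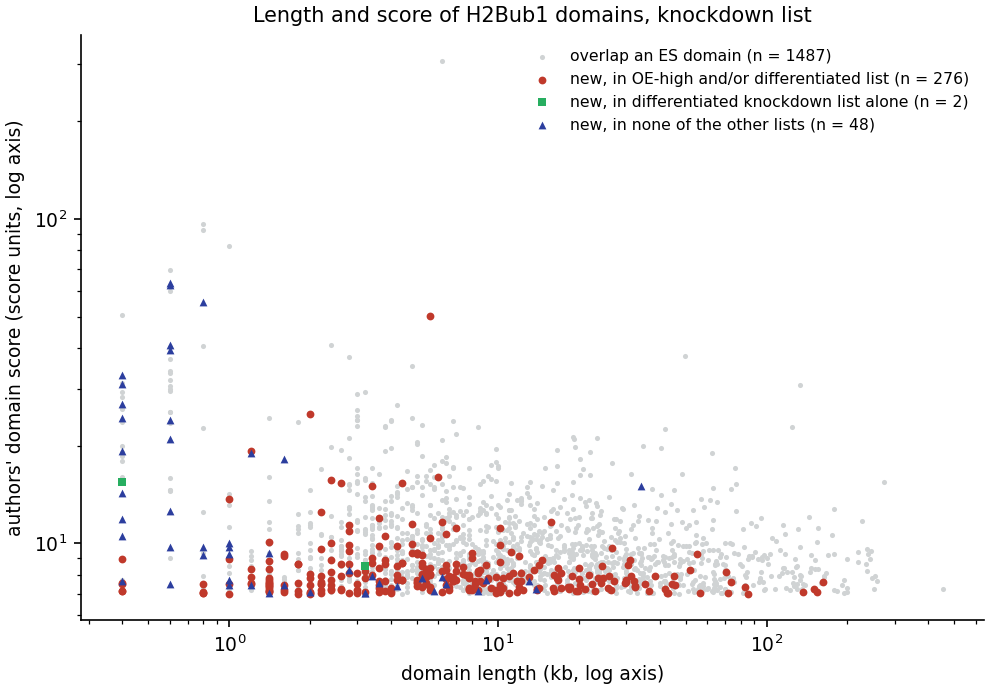
Length (kb, log axis) and authors' score (log axis) of all 1813 knockdown H2Bub1 domains, with the new domains coloured by the other lists they appear in. Most of the 326 new domains lie along the lower edge of the scores, and among new domains the short ones with the highest scores are in no other list.

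The nearest ES domain lay 0 to 4882600 bp away, with a median of 123700 bp. At the edge of the rule stood 2 new domains that touched an ES domain without sharing a base. They were 106952200 to 106953999 on chromosome 11 (score 8.62) and 117524800 to 117526199 on the same chromosome (score 7.15). Of the new domains that lay 200 bp away, the longest was 15990800 to 15994599 on chromosome 19 (score 7.13). Just outside were 3 knockdown domains of 1400 bp each. On chromosome 11 those at 87792000 to 87793399, with a score of 7.43, and at 106778400 to 106779799, with a score of 7.17, shared 200 bp with an ES domain. The one on chromosome 1 at 9928800 to 9930199, with a score of 9.37, shared 400 bp. Coordinates are on mm9 and counted from 1. No mm9 annotation or genome sequence was used here, so regions are given by position, without genes or bases.

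Most new domains were also H2Bub1 domains when Fbxl19 was overexpressed. Of the 326, 269 (82.5%, interval 77.9 to 86.5) overlapped an OE-high domain, against 93.2% of all knockdown domains and 95.5% (interval 94.3 to 96.5) of those that overlapped an ES domain. The differentiated list held 221 of them (67.8%, interval 62.4 to 72.8), against 82.3% of all knockdown domains and 85.5% of the others. The differentiated knockdown list held 46 (14.1%, interval 10.5 to 18.4), against 36.3% of all knockdown domains and 41.2% of the others. The difference from the others was -13.0 percentage points for OE-high (interval -17.7 to -8.84), -17.7 for differentiated cells (interval -23.4 to -12.4) and -27.1 for the differentiated knockdown (interval -31.5 to -22.2). The differentiated knockdown, the other condition with Fbxl19 knocked down, thus listed the fewest of these domains, as it did of the whole knockdown list.

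The order of these shares is that of the sizes of the lists. The OE-high list had 7216 domains over 246 Mb, the differentiated list 5125 over 156 Mb and the differentiated knockdown list 1090 over 15.6 Mb. With each cut to its 1090 top-scoring domains, the new domains were present in 21.5% of cases in OE-high, 19.3% in differentiated and 14.1% in differentiated knockdown cells, and the others in 41.4%, 38.5% and 41.2%. The lower share among new domains thus held at an equal number of listed domains. The order of the conditions also stayed for the new domains, with smaller gaps, while the shares of the others lay close together. The cut set the number of domains alike, not the bases covered. In the full lists the median length was 21600 bp for OE-high, 19800 bp for differentiated and 8000 bp for differentiated knockdown cells. New domains scored lower in the knockdown list than the others, and presence was not compared at equal score. By the rule, the others had already been listed in another condition, ES cells, and new domains had not. The part of this rule in the gap was not tested.

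Setting the lengths alike narrowed the gap in all 3 lists, least in the differentiated knockdown relative to its size. With the other knockdown domains weighted to the 4 length classes of the new domains, their shares came to 90.6% in OE-high, 78.7% in differentiated and 37.5% in differentiated knockdown cells. Among domains of 20 kb or more, 46 of 47 new domains (97.9%) and 98.4% of the others were in the OE-high list, a difference of -0.53 points (interval -9.74 to 2.04). In the same class the differentiated knockdown list held 12 of 47 new domains (25.5%, interval 13.9 to 40.3) and 51.5% of the others (interval 47.0 to 56.0). In the middle classes, which hold most new domains, the OE-high list had 83.3% of the new domains of 1 to 5 kb against 92.3% of the others (difference -8.95 points, interval -17.1 to -2.02), and 89.3% against 98.4% for 5 to 20 kb (difference -9.02 points, interval -15.9 to -3.97). For domains under 1 kb the OE-high shares were 29% (9 of 31) and 41.0%, with an interval of the difference from -34.4 to 12.5 points that includes 0.

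**Figure D2:**
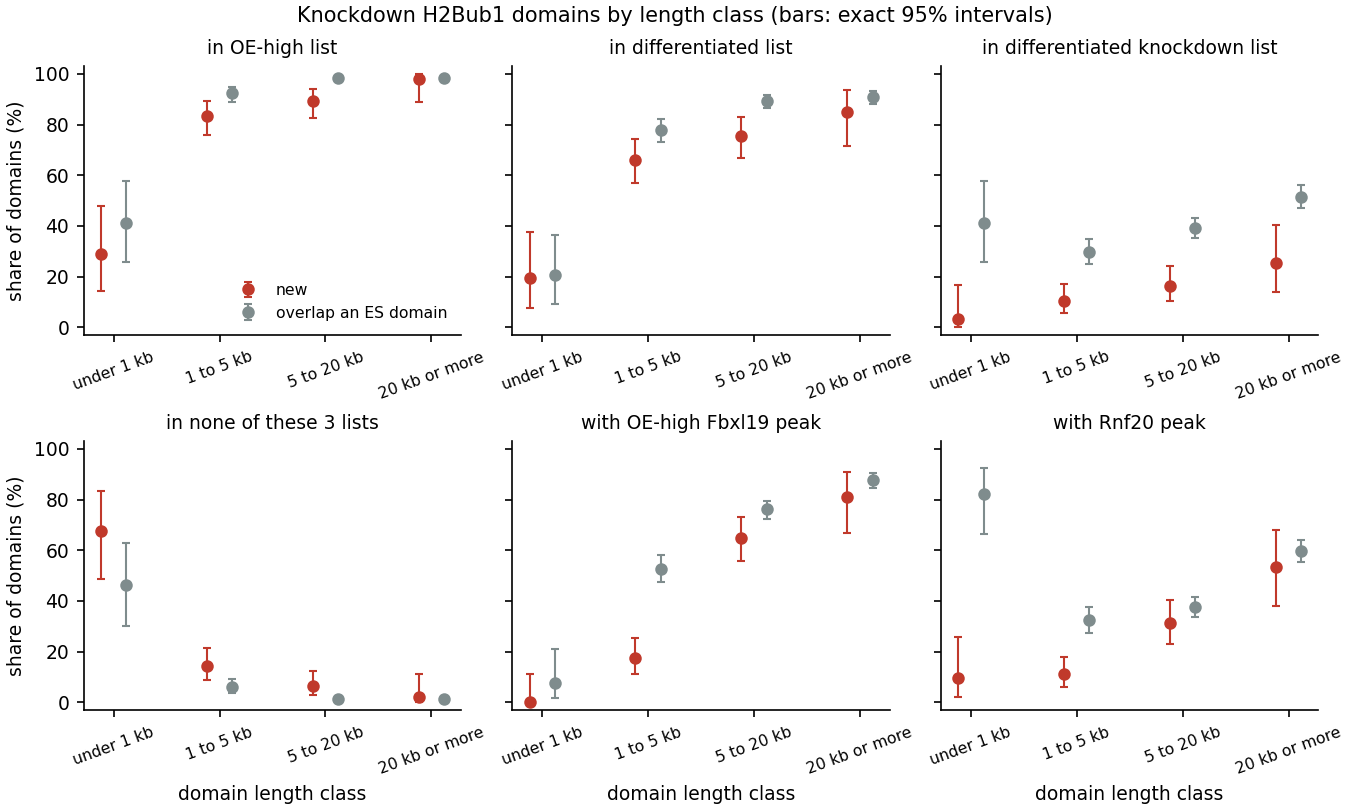
Share (%) of new knockdown domains and of knockdown domains that overlap an ES domain, in 4 length classes, that are in the OE-high, differentiated or differentiated knockdown H2Bub1 list, in none of these 3, or that hold an OE-high Fbxl19 or an Rnf20 peak; bars are exact 95% intervals. Presence in the OE-high list reaches 97.9% for new domains of 20 kb or more, while the differentiated knockdown list holds 25.5% of them.

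By pattern, 171 new domains (52.5%) were in the OE-high and differentiated lists but not in the differentiated knockdown, 43 (13.2%) were in all 3, 54 (16.6%) in OE-high alone, 7 in differentiated cells alone, 2 in the differentiated knockdown alone and 1 in OE-high and the differentiated knockdown. The remaining 48 (14.7%, interval 11.1 to 19.0) were in no H2Bub1 list but that of the knockdown. Of all knockdown domains, 5.52% were in none of the OE-high, differentiated and differentiated knockdown lists, and of those that overlapped an ES domain 3.50%. Domains present in all 3 had a median length of 9800 bp, those in OE-high and differentiated cells 5600 bp, those in OE-high alone 5000 bp and those in no other list 1000 bp.

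Where a new domain was present in OE-high cells it was usually part of a longer domain. The 269 new domains had a median of 5600 bp and the OE-high domains over them a median of 29800 bp. The median length ratio was 4.39, and the OE-high domain was longer in 229 cases. The other knockdown domains, with a median of 11400 bp, had a ratio of 1.52 to OE-high domains with a median of 28400 bp. The OE-high domains were thus of similar length over both sets, and the ratios differed with the length of the knockdown domains. In differentiated cells the ratio was 3.06 for the 221 new domains and 1.30 for the others, and in the differentiated knockdown it was 0.99 for the 46 new domains and 0.79 for the others. New domains lay wholly inside OE-high domains in 170 of 269 cases (63.2%, interval 57.1 to 69.0), against 49.9% of the others. Lengths were not set alike for this comparison, and an OE-high domain over several knockdown domains was counted once for each of them. The OE-high domains over new domains stood at a median percentile of 68.2 of their list by score, and those over the other knockdown domains at 80.2, so places new in the knockdown were above the middle of the OE-high list but lower than places already listed in ES cells.

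The OE-high domain over a new domain was in most cases absent from ES cells too. For 207 of the 269 (77.0%) no OE-high domain over the new domain met an ES domain, and for 170 of the 221 present in differentiated cells (76.9%) no differentiated domain over it did. The other 62 and 51 met a domain that itself met an ES domain.

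**Figure D3:**
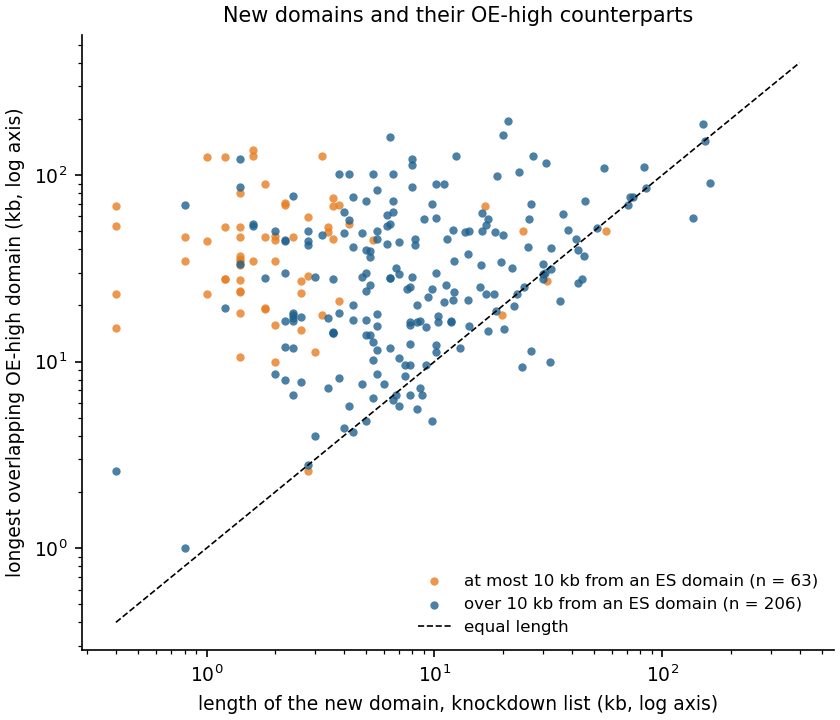
Length of each new domain (kb, log axis) against that of the longest OE-high H2Bub1 domain overlapping it (kb, log axis), for the 269 new domains present in OE-high cells, coloured by distance to the nearest ES domain; the dashed line marks equal length. Domains at most 10 kb from an ES domain are mostly short, with a median of 1800 bp, and most lie far above the line. Some long ones lie below it, among them the longest, of 56.4 kb against an OE-high domain of 50.4 kb.

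New domains beside an ES domain were shorter than those far from one. Within 10 kb of an ES domain lay 74 of them (22.7%, interval 18.3 to 27.6), with a median length of 2000 bp and a median score of 7.54, and none of the 74 had an ES domain within 10 kb on both sides. Of these, 63 were present in OE-high cells, and for 58 the OE-high domain also covered part of an ES domain. The 252 new domains over 10 kb away had a median length of 6400 bp, and of the 206 present in OE-high cells 202 (98.1%) met an OE-high domain with no ES counterpart. An end of the new domain fell within 1 kb of the same end of an OE-high domain in 127 of these 206 (61.7%, interval 54.6 to 68.3) and in 8 of the 63 near ones (12.7%, interval 5.65 to 23.5), against 68.7% of the other knockdown domains. Presence in the OE-high list was 85.1% near (interval 75 to 92.3) and 81.7% far (interval 76.4 to 86.3), with overlapping intervals.

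New domains held Fbxl19 peaks less often than the other knockdown domains. No Fbxl19 or Rnf20 sample came from knockdown cells, so these peaks do not show where either protein was bound there. OE-high Fbxl19 peaks were found in 139 of the 326 (42.6%, interval 37.2 to 48.2), against 67.5% of all knockdown domains and 73.0% (interval 70.6 to 75.2) of those that overlapped an ES domain. For OE-low Fbxl19 peaks the number was 22 (6.75%, interval 4.28 to 10), against 16.2% of all and 18.2% of the others. Rnf20 peaks were in 80 (24.5%, interval 20 to 29.6), against 41.4% of all and 45.1% of the others. The differences were -30.3, -11.5 and -20.6 percentage points, and their intervals ran from -36.2 to -24.3, from -14.7 to -7.66 and from -25.8 to -14.9. Weighted to the length classes of the new domains, the others had OE-high Fbxl19 in 62.3%, OE-low Fbxl19 in 14.2% and Rnf20 in 43.0%.

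Per Mb of domain, pooled over all lengths, OE-high Fbxl19 peaks were as dense in new domains as in the others. New domains held 175 OE-high Fbxl19 peaks, 47.6 per Mb, the other knockdown domains 47.1 per Mb and ES domains 50.4 per Mb. The densities for Rnf20 were 30.7, 37.6 and 38.9 per Mb, and for OE-low Fbxl19 6.80, 9.15 and 9.16 per Mb. Peaks inside new domains had a median score of 10.7 for OE-high Fbxl19, as in the whole list of 13669 peaks (10.7). Long new domains came close to the others, with OE-high Fbxl19 in 38 of 47 of at least 20 kb (80.9%, interval 66.7 to 90.9) against 87.8%, and Rnf20 in 25 of 47 (53.2%, interval 38.1 to 67.9) against 59.9%. In the class of 1 to 5 kb the shares were far apart, at 17.5% (interval 11.3 to 25.2) against 52.8% (interval 47.3 to 58.3) for OE-high Fbxl19 and 11.1% (interval 6.21 to 17.9) against 32.3% (interval 27.4 to 37.6) for Rnf20.

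Few new domains beside an ES domain held a peak of either protein, and none of those on chromosomes 1 and 11 did. OE-high Fbxl19 peaks were found in 5 of the 74 within 10 kb (6.76%, interval 2.23 to 15.1) and 134 of the 252 farther away (53.2%, interval 46.8 to 59.5). Rnf20 peaks lay in 3 of the 74 (4.05%, interval 0.844 to 11.4) and in 77 of the 252 (30.6%, interval 24.9 to 36.6). Per Mb, OE-high Fbxl19 peaks numbered 19.4 near and 50.2 far, and Rnf20 peaks 13.0 and 32.3. Without chromosomes 1 and 11, a choice made after seeing the data, near and far densities lay close together. They were 48.5 and 52.1 for Fbxl19 and 32.3 and 34.7 for Rnf20, the near values from 21 domains over 0.124 Mb. The shares of domains with an OE-high Fbxl19 peak stayed apart there. They were 23.8% of the 21 near (interval 8.22 to 47.2) and 56.7% of 210 far domains (interval 49.7 to 63.5). For Rnf20 they were 14.3% (interval 3.05 to 36.3) and 32.9% (interval 26.5 to 39.7), and median lengths were 3000 and 6500 bp. Among domains of 1 to 5 kb the Fbxl19 shares were 3.45% of 58 near and 29.4% of 68 far domains (intervals 0.420 to 11.9 and 19.0 to 41.7). Near domains were the shorter also within this class, with medians of 1800 and 2800 bp, and the part of length in the contrast was not tested. Between 10 and 100 kb and over 100 kb from an ES domain the Fbxl19 shares were level, at 53.4% of 73 and 53.1% of 179.

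**Figure D4:**
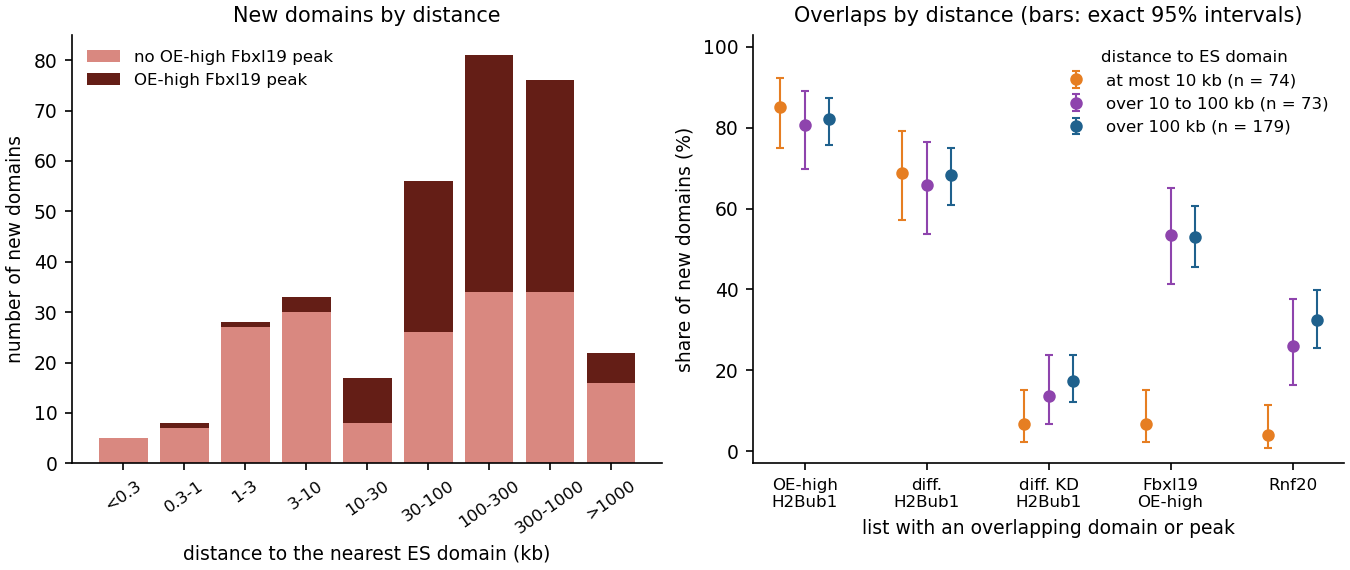
Left, number of new domains by distance to the nearest ES domain (kb), split by whether they hold an OE-high Fbxl19 peak. Right, share (%) of new domains in 3 distance classes that overlap each list, with exact 95% intervals: Fbxl19 is in 6.76% of those within 10 kb and in 53.4% and 53.1% of the farther classes, while presence in the OE-high H2Bub1 list lies between 80.8% and 85.1% in all 3.

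Most new domains with an Rnf20 peak also held an OE-high Fbxl19 peak, whereas most with an OE-high Fbxl19 peak held no Rnf20 peak. In this paragraph Fbxl19 stands for OE-high Fbxl19 peaks, which were not mapped in knockdown cells. Both were present in 62 (19.0%, interval 14.9 to 23.7), and in 56 of these an Fbxl19 peak overlapped an Rnf20 peak. Of the other knockdown domains 564 (37.9%) held both, out of 671 with Rnf20 and 1085 with Fbxl19. In 511 of the 564 such peaks overlapped. Of the new domains, 77 (23.6%) held Fbxl19 without Rnf20, 18 (5.52%) Rnf20 without Fbxl19 and 169 (51.8%, interval 46.3 to 57.4) neither. The shares among the others were 35%, 7.2% and 19.8%. New domains with Fbxl19 were nearly all listed in OE-high cells, 75 of 77 without Rnf20 and 60 of 62 with it, whereas 123 of the 169 with neither were. The other knockdown domains with Fbxl19 were nearly all listed there too, 512 of 521 without Rnf20 and 556 of 564 with it. Of those with neither, 270 of 295 were listed, a higher share than among the new domains. Length goes along with this, since new domains with neither had a median of 2200 bp and those with both 9800 bp. In the 169 new domains of at least 5 kb, an OE-high Fbxl19 summit lay within 1 kb of an end in 80 (47.3%, interval 39.6 to 55.1), against 58.7% of the others (interval 55.7 to 61.6). It was at both ends in 1 of them, and 38 had a summit inside and none at an end.

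Among new domains present in all 3 other lists, the highest score belonged to 121654400 to 121660399 on chromosome 5 (6000 bp, score 15.98). The list of OE-high cells had 121654400 to 121661999 there (score 21.5), that of differentiated cells 121654400 to 121662399 (score 16.9) and that of the differentiated knockdown 121654000 to 121661199 (score 8.24). The left end was thus the same to within 400 bp in all 4 lists. Fbxl19 in OE-high cells peaked over it at 121654347 to 121655137 and Rnf20 just inside it at 121654429 to 121655178. The nearest ES domain was 187600 bp away.

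The next, 101420400 to 101424799 on chromosome 13 (score 15.4), also held an OE-high Fbxl19 and an Rnf20 peak. It lay inside a longer OE-high domain, 101407000 to 101448199, while the differentiated knockdown domain at 101420200 to 101424599 matched it to within 200 bp at both ends. On chromosome 1, 182655600 to 182661999 (score 10.7) had an OE-high Fbxl19 peak at its left end and no Rnf20 peak, and the OE-high domain over it ran on to 182682799. The longest of this pattern was 150701000 to 150785999 on chromosome 7 (85000 bp, score 7.002), which the OE-high list matched at 150700400 to 150785999 with a score of 14.7 and of which the differentiated knockdown list covered 10.1%.

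Of the new domains in OE-high and differentiated cells only, the leading one by score was 3079200 to 3084799 on chromosome 17 (score 50.2). It held 2 OE-high Fbxl19 peaks, 1 OE-low Fbxl19 peak and 1 Rnf20 peak. The differentiated list had the same interval (score 44.9), and an OE-high domain from 3076200 to 3084799 (score 41.9) joined it to a second new domain, 3076200 to 3078199 (score 25.03), which held no peak of either protein. That second domain was the highest-scoring of those present in OE-high cells alone. Next came 29697800 to 29698999 on chromosome 6 (score 19.2), with no peak of either protein, and 85291600 to 85294999 on chromosome 12 (score 15.0), whose left end coincided with those of the OE-high and differentiated domains and lay in an Fbxl19 peak of OE-high cells, 85291164 to 85292658.

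The longest new domain ran over 161600 bp on chromosome 8, from 72415800 to 72577399 (score 7.63). It held 5 OE-high Fbxl19 peaks, 1 OE-low Fbxl19 peak and 5 Rnf20 peaks, and 117000 bp separated it from the nearest ES domain. OE-high cells had 3 domains over it with scores up to 23.3, covering 84.7% of its length, and differentiated cells 2, covering 86.5%, so the knockdown list joined what those lists divided. A second of this kind, 126431000 to 126567199 on chromosome 8 (score 7.09), held 3 OE-high Fbxl19 and 6 Rnf20 peaks and met 3 OE-high domains over 79.3% of its length. At 9460400 to 9610999 on chromosome 3 (150600 bp, score 7.23) a single OE-high domain, 9426400 to 9613399, covered all of a new domain that was in neither differentiated list. All 3 long domains scored close to the listing threshold.

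The other new domains of the OE-high list alone that led by score were 129961600 to 129963999 on chromosome 1 (score 15.7), without a peak of either protein, and 82691400 to 82696199 on chromosome 12 (score 11.5), with an Fbxl19 peak of each clone. The 1 new domain in OE-high and differentiated knockdown cells was 35087000 to 35089599 on chromosome 17 (score 15.3), which held 2 OE-high Fbxl19 and 3 Rnf20 peaks. An Fbxl19 peak at 35086376 to 35087133 and an Rnf20 peak at 35086378 to 35087039 nearly coincided at its left end. In differentiated cells alone, 45206200 to 45207199 on chromosome 4 (score 13.7) led, followed by 96039600 to 96054199 on chromosome 3 (score 8.87), which held 2 OE-high Fbxl19, 4 OE-low Fbxl19 and 2 Rnf20 peaks, and by 60275800 to 60280999 on chromosome 11 (score 8.49). The 2 in the differentiated knockdown alone, 29301400 to 29301799 on chromosome 15 (score 15.4) and 15059600 to 15062799 on chromosome 5 (score 8.52), held no peak, and the first was listed with the same ends in both knockdown states.

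New domains found in no other list were short and, among the short, high in score. Of the 48, 21 were under 1 kb, with a median score of 21.0 and a highest of 63.6, and 1 of the 48 held an OE-high Fbxl19 peak. The 3 leading ones were 90771600 to 90772199 on chromosome 18 (score 63.6), 95848400 to 95848999 on chromosome 3 (score 62.8) and 181747400 to 181748199 on chromosome 2 (score 55.5), none with a peak of either protein. The longest, 57668600 to 57702799 on chromosome 10 (34200 bp, score 15.1), held 2 Rnf20 peaks and no Fbxl19 peak and lay 206800 bp from an ES domain. Of the 13 new domains that scored over 20, 11 were under 1 kb and in no other list, and the other 2 were the neighbouring pair on chromosome 17.

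Short new domains differed from short domains shared with ES cells in the Rnf20 list. Of the 31 new domains under 1 kb, 3 overlapped an Rnf20 peak (9.68%, interval 2.04 to 25.8), against 32 of 39 short knockdown domains that overlapped an ES domain (82.1%, interval 66.5 to 92.5). The differentiated knockdown list held 1 of the 31 (3.23%) and 16 of the 39 (41.0%). OE-high Fbxl19 peaks were in 0 of the 31, which allows a share of up to 9.68% by a limit of 3 counts and 11.2% by the exact interval, and in 3 of the 39. Score moved with this contrast too, since the short shared domains had a median score of 25.5 and the short new ones 11.9, and its part in the difference was not tested. The Rnf20 list came from a single library.

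New domains were unevenly spread over chromosomes. They made up a median of 20.7% of the knockdown domains over the 19 autosomes, with the highest share on chromosome 19 (13 of 40, 32.5%, interval 18.6 to 49.1) and the lowest on chromosome 14 (1 of 45, 2.22%, interval 0.0562 to 11.8). Chromosome 9 had 3 of 74 (4.05%) and chromosome 4 had 7 of 98 (7.14%), and chromosomes 4, 9 and 14 together 11 of 217 (5.07%, interval 2.56 to 8.89). Chromosomes 1, 11 and 17 together had 118 of 755 (15.6%, interval 13.1 to 18.4), and the remaining autosomes 193 of 825 (23.4%, interval 20.5 to 26.4). The ratio of knockdown to ES domains was 0.283 on chromosome 14, 0.361 on 9 and 0.378 on 4, below the median of 0.605 over autosomes, but 0.862 on chromosome 1, 0.808 on 17 and 0.774 on 11, above it. Low shares of new domains thus stood beside both the lowest and the highest ratios. The part of this ratio in the result was not tested, and these sets of chromosomes were chosen after the values had been seen.

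**Figure D5:**
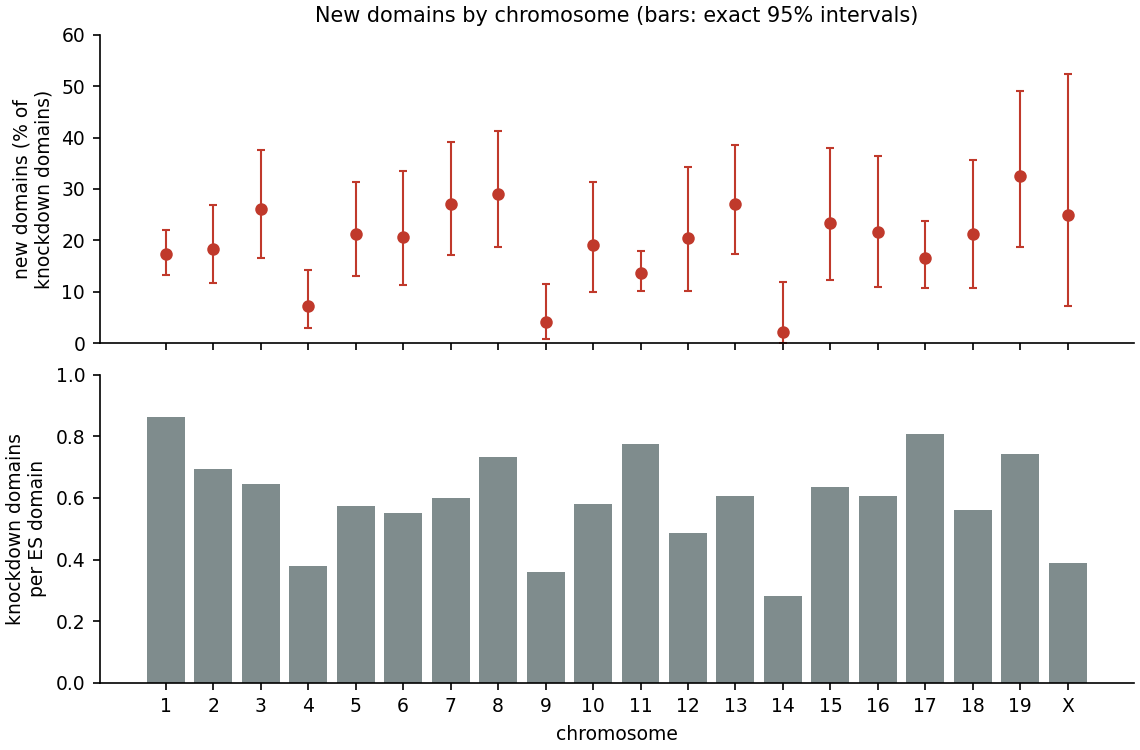
Top, new domains as a share (%) of all knockdown domains on each chromosome, with exact 95% intervals; bottom, number of knockdown H2Bub1 domains per ES domain. Chromosomes 4, 9 and 14 are low in both, with 7.14%, 4.05% and 2.22% of domains new.

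Chromosomes 1 and 11 held 95 new domains, 15.4% of their knockdown domains against 18.0% in the whole list. They held 29.1% of the new and 35.04% of the other knockdown domains, but most of the new domains near an ES domain. Of the 74 new domains within 10 kb of an ES domain, 53 were on chromosomes 1 and 11, and none of the 53 held an OE-high Fbxl19 or an Rnf20 peak, which allows a share of up to 5.66% by a limit of 3 counts and 6.72% by the exact interval. On the other chromosomes 5 of 21 near domains held Fbxl19 (23.8%, interval 8.22 to 47.2). Of the new domains over 10 kb away, 15 of 42 on chromosomes 1 and 11 held Fbxl19 (35.7%, interval 21.6 to 52.0) and 119 of 210 elsewhere (56.7%, interval 49.7 to 63.5). Without chromosomes 1 and 11, an OE-high Fbxl19 peak was in 53.7% of new domains and an Rnf20 peak in 31.2%, and presence in the OE-high list was 83.5%. Chromosome 8 had 20 new domains (29% of its 69), of which 15 held OE-high Fbxl19, 9 held Rnf20 and 19 were listed in OE-high cells. Their median length was 7900 bp, and over the whole knockdown list these shares were 67.5%, 41.4% and 93.2%.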

How the data were processed

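H2Bub1, Fbxl19 and Rnf20 regions were the authors' deposited lists. The deposited H2Bub1 lists give a score and, as a further deposited value, the length of each domain in bp; per the file headers their track lines end in BCP, a broad-domain caller, and name combined sets. BWA 0.5.9-r16, MACS and the build mm9 come from the submitters' processing notes, which give no roles. The calling thresholds and the caller of Fbxl19 peaks were not given in the sources used here. Fbxl19 lists were read as counted from 1, the others from 0. Each list was taken for the group its name and the sample titles give. One of the 3 OE-high H2Bub1 samples has no list in its description, and its place in the combined list is unknown. The 4 input samples were not used here.

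A knockdown domain with no base in common with an ES domain was new; presence elsewhere needed 1 bp. Distances are bases between nearest ends. Shares carry exact Clopper-Pearson 95% intervals, and the interval of a difference adds both in squares. An upper limit for 0 is 3 counts of the total. Named regions are, for each pattern of presence, the 3 highest-scoring and the longest new domain, the 3 longest with both an OE-high Fbxl19 and an Rnf20 peak, and those at the edge of the rule. Domains, classes and comparisons were chosen with earlier results of these data known. Python 3.11.15, NumPy 2.4.6, SciPy 1.17.1 and matplotlib 3.10.9 were used. Overlap counting was checked on simulated data: of 2000 simulated domains with a planted overlap of 30%, it recovered 30%.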

Additional observations from a re-analysis of the deposited data

How the results depend on the processing

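Of 73 values recomputed under other settings for 9 results, 50 stayed within the interval of the value reported (a count, within 1.5 times). The number of new domains was 313 and 252 with those within 1 kb and 10 kb of an ES domain left out, and 419 with under 50% coverage by ES domains as the rule. Asking for 50% coverage or allowing 1 kb of distance moved no share beyond its interval. For Fbxl19 and Rnf20 peaks the stricter setting was a peak midpoint inside the new domain, in place of 50% coverage. With new domains from the upper 50% of the knockdown list by score, presence was 63.3% in OE-high and 55.7% in differentiated cells, and 32.9% were in no other list. With the upper 50% of the other list by score, the shares were 57.7% for OE-high, 46.0% for differentiated, 7.06% for differentiated knockdown cells and 35.6% for none, and 23.3% for OE-high Fbxl19, 3.99% for OE-low Fbxl19 and 15.3% for Rnf20. New domains of at least 2 kb gave 90.8% for OE-high, 73.6% for differentiated cells, 6.40% for none, 55.6% for OE-high Fbxl19 and 30.4% for Rnf20. Lists of the same size gave 21.5%, 19.3% and, for none, 66.0%. New domains over 10 kb from ES domains gave 53.2% for OE-high Fbxl19, 30.6% for Rnf20 and a median length of 6400 bp. Without chromosomes 1 and 11, an alternative chosen after seeing the data, OE-high Fbxl19 was in 53.7% and Rnf20 in 31.2%. Shorter lists hold fewer domains to meet, by construction; the cause of the other shifts was not tested.

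No paired analysis was possible because the lists combine the replicates of each group, and for the same reason leaving out each replicate was not run. Depth per sample is unknown, and signal under the listing threshold was not analysed here.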
